A study of Homo sapiens with 8 samples.

Results

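The enzymes that turn farnesyl pyrophosphate into cholesterol through squalene were examined in HepG2 cells, an established hepatocellular carcinoma line, after knockdown of NAT10. The 9 genes (FDFT1, SQLE, CYP51A1, MSMO1, NSDHL, HSD17B7, EBP, SC5D and DHCR7) were chosen by name, as listed enzymes of this arm. They are 9 of the 86369 rows of the count table, and 7 of them were among the 13840 genes that passed the filter on low counts. One group received a short interfering RNA against NAT10 (siNAT10) and the other a negative control siRNA (siCtrl), both by lipofection, with RNA taken after 2 days. There were 4 libraries per group. Per the labels, batch 1 holds replicates 1 and 2 from either group, and batch 2 holds replicates 3 and 4. Nothing in the labels says that replicates were separate cultures, so p-values measure the spread between these libraries, which may be technical. All cells were of 1 line, and the cells were measured in bulk, so that fewer expressing cells and less RNA per cell cannot be told apart.

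Cholesterol synthesis has an early arm, which makes farnesyl pyrophosphate from acetyl-CoA, and a late arm, which begins when squalene synthase joins a pair of farnesyl units. In the late arm squalene is oxidised and folded into lanosterol, which then loses its extra methyl groups and has its double bonds moved and reduced. Most of these genes are known targets of SREBP-2, a membrane-bound transcription factor that is released when sterols in the endoplasmic reticulum run low. The liver makes much of the cholesterol that the body uses for lipoproteins and bile acids.

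Libraries held between 9731718 and 27977110 counts, and the 2 shallowest were siNAT10 replicates 3 and 4. Levels are given as CPM, the count scaled to a common library size, which TMM factors correct for composition. The libraries were made from the 3′ end of polyadenylated RNA, so a count stands for a transcript end and is not meant to grow with transcript length. NAT10, the targeted gene, stood at 44.7, 39.2, 77.8 and 48.9 CPM in siCtrl replicates 1 to 4 and at 13.1, 12.2, 20.1 and 22.3 CPM in siNAT10 replicates 1 to 4, and it fell by 1.66 on the log2 scale (edgeR adjusted p 2e-05). Of 8 hepatocyte markers, all had counts, 4 were lower and 1 higher at an unadjusted p under 0.05, and TF (transferrin) fell (log2 fold change -0.49, edgeR adjusted p 0.023). That call was lost, with an adjusted p between 0.053 and 0.091, when siCtrl replicate 1 or 3, or any of siNAT10 replicates 1 to 3, was left out. It was also lost with no batch term (0.23) and in batch 1 or batch 2 alone (0.27 and 0.48), and over all 17 alternatives the fold change of TF lay between -0.59 and -0.39. The summed level of the 8 ran from 9387 to 9868 CPM in siCtrl and from 7555 to 8134 CPM in siNAT10. Of 8 markers of blood, endothelial, fibroblast, smooth muscle and basal epithelial cells, PTPRC, CD3E, COL3A1 and KRT5 had 0 counts in all libraries, and the summed level of the 8 was 31.6 to 42.0 CPM in siCtrl and 30.2 to 37.9 CPM in siNAT10. The part of these marker levels in the results below was not tested.

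The 9 enzymes did not have equal counts behind them. FDFT1 (ENSG00000079459; GRCh38 chromosome 8, 11795573 to 11839395, plus strand) encodes squalene synthase and had 294 counts over the 8 libraries. SQLE (ENSG00000104549; chromosome 8, 124998497 to 125022283, plus strand) encodes squalene epoxidase, a rate-controlling step of the arm, and had 4324. CYP51A1 (ENSG00000001630; chromosome 7, 92084987 to 92134803, minus strand), the lanosterol 14-alpha-demethylase, had 1 count, in siNAT10 replicate 2. NSDHL (ENSG00000147383; chromosome X, 152830967 to 152869729, plus strand), which acts in the removal of the C4 methyl groups, had 12 counts, all in siNAT10 replicate 1, and 0 in the other libraries. These 2 genes did not pass the filter, no fold is given for them, and a count of 0 allows up to 3 counts, or 0.104 to 0.293 CPM depending on the library (counting error only). Exons of ENSG00000289027 and ENSG00000285772, genes annotated on the same strand, lie over the last exon of CYP51A1. They held 1 and 0 counts. In no other member did another gene's exon in GENCODE 44 lie over the last exon. How reads that fall in more than one gene were counted is not given in the sources used here, so the level of CYP51A1 cannot be read from this table, and the part of overlapping genes in the low counts of NSDHL and FDFT1 was not tested.

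The remaining members gave usable counts in every library. MSMO1 (ENSG00000052802; chromosome 4, 165327667 to 165343164, plus strand), the C4-methylsterol oxidase, had 5995 counts in all. HSD17B7 (ENSG00000132196; chromosome 1, 162790702 to 162812823, plus strand), the 3-keto sterol reductase of C4 demethylation, had 1856. Its pseudogenes HSD17B7P1 and HSD17B7P2 held 1 and 4 counts, so few reads were assigned to the copies, though reads that map to several of them may have been dropped. EBP (ENSG00000147155; chromosome X, 48521799 to 48528716, plus strand), the sterol isomerase that moves the ring double bond, had 19254 counts. An intron of ENSG00000286268, on the same strand and with 0 counts, spans its last exon. SC5D (ENSG00000109929; chromosome 11, 121292681 to 121313410, plus strand), the lathosterol desaturase, had 2756. DHCR7 (ENSG00000172893; chromosome 11, 71428193 to 71452868, minus strand), the 7-dehydrocholesterol reductase that ends 1 route to cholesterol, had 13769. All 9 are annotated as protein-coding.

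In siCtrl the order of levels was EBP (137.2 ± 24.1 CPM, SD, n = 4 here and below), DHCR7 (100.8 ± 24.6 CPM), MSMO1 (44.3 ± 7.00 CPM), SQLE (33.0 ± 5.95 CPM), SC5D (19.0 ± 2.11 CPM), HSD17B7 (12.96 ± 3.36 CPM) and FDFT1 (2.06 ± 0.50 CPM). The libraries of EBP and DHCR7 overlapped, as did those of MSMO1 and SQLE and those of SC5D and HSD17B7. No overlap was seen between DHCR7 and MSMO1, between SQLE and SC5D, or between HSD17B7 and FDFT1, so the order has clear steps only at those places. The same order of means was found in siNAT10 for these 7.

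All 7 tested enzymes had a lower fitted level in siNAT10 than in siCtrl, at 73.9% (MSMO1) to 88.6% (SC5D) of the siCtrl level. None passed the threshold: 0 of 7 had an adjusted p under 0.05 (edgeR quasi-likelihood test with batch in the model, Benjamini-Hochberg over all 13840 genes), where 2.28% of all tested genes were called, 1.46% lower and 0.816% higher. At an unadjusted p under 0.05, 4 of 7 (MSMO1, DHCR7, SQLE and EBP) were lower, against 8.24% of all tested genes, and 0 were higher, against 7.46%. DESeq2 called 2 of the 7, MSMO1 (adjusted p 0.022) and DHCR7 (adjusted p 0.034), both lower, against 2.95% called lower among the 11693 genes to which DESeq2 gave an adjusted p. In 0 of 7 did the 4 siNAT10 libraries all lie below the 4 siCtrl libraries, which was so in 3.15% of all tested genes. The median log2 fold change of the 7 was -0.39, beside -0.0024 over all tested genes, of which 50.3% were below 0. With 7 genes the median is the value of 1 of them, here FDFT1, which had the fewest counts of the 7 (294). The median was -0.25 without siNAT10 replicate 1 (the value of EBP) and -0.24 without siNAT10 replicate 4 (that of FDFT1).

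**Figure D1:**
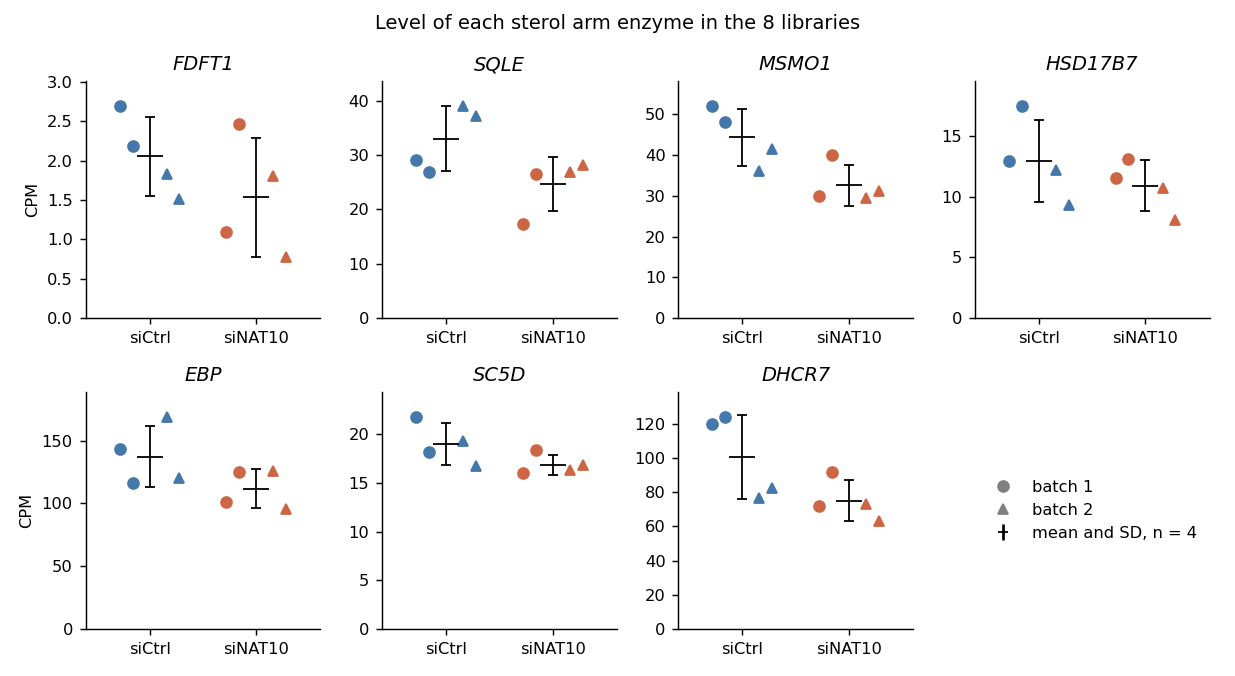
Level of each tested enzyme (CPM, linear axis from 0) in the 4 siCtrl and 4 siNAT10 libraries, circles for batch 1 and triangles for batch 2, with the mean and SD of each group (n = 4). In MSMO1, SQLE and DHCR7 both siNAT10 libraries lie below both siCtrl libraries of their own batch, while the groups overlap when the batches are pooled.

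The step that opens the arm could be followed only at low depth. FDFT1 stood at 2.69, 2.19, 1.83 and 1.52 CPM in siCtrl replicates 1 to 4 and at 1.10, 2.47, 1.80 and 0.78 CPM in siNAT10 replicates 1 to 4. The groups overlapped in both batches, and siNAT10 replicate 4 rested on 8 counts. Its log2 fold change was -0.39 with a 95% interval from -1.07 to 0.29 (edgeR adjusted p 0.61), or 0.477 to 1.22 times the siCtrl level. It was -0.17 without siNAT10 replicate 1, -0.68 without replicate 2, -0.59 without replicate 3 and -0.24 without replicate 4 of that group.

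SQLE stood at 29.1, 26.8, 38.9 and 37.1 CPM in siCtrl replicates 1 to 4 and at 17.4, 26.6, 26.8 and 28.2 CPM in siNAT10 replicates 1 to 4. Within batch 2 the siNAT10 libraries were well below the siCtrl ones, and within batch 1 siNAT10 replicate 1 was far below while replicate 2 was level with siCtrl replicate 2. The log2 fold change was -0.40 (SE 0.13), which left 75.6% of the siCtrl level, with an unadjusted p of 0.0056 and an edgeR adjusted p of 0.11. It was -0.33 in batch 1 and -0.47 in batch 2 fitted alone.

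MSMO1 stood at 51.9, 48.0, 36.1 and 41.4 CPM in siCtrl replicates 1 to 4 and at 29.9, 40.0, 29.3 and 31.1 CPM in siNAT10 replicates 1 to 4. Every siNAT10 library lay below both siCtrl libraries of its batch, and only siNAT10 replicate 2 lay within the range of all siCtrl libraries. The log2 fold change was -0.44 (SE 0.11, 95% interval -0.68 to -0.20), the largest of the 7, with an unadjusted p of 0.0014 and an edgeR adjusted p of 0.056. When replicate number replaced batch as the block, edgeR gave an adjusted p of 0.035. Without siCtrl replicate 3 it was 0.049, and in the fits that left out another library it lay between 0.056 and 0.19.

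HSD17B7 ran from 9.32 to 17.4 CPM in siCtrl and from 8.12 to 13.1 CPM in siNAT10, and the groups overlapped in both batches. Its log2 fold change was -0.24 with a 95% interval from -0.56 to 0.08 (edgeR adjusted p 0.47). Without siCtrl replicate 2, the highest library, it was -0.13. HSD17B7 was also the only member with the heptamer GTCTCTA, named in an earlier analysis of these data, in its annotated 3′ UTR (1 copy). Of the 10885 tested genes with an annotated 3′ UTR 15.4% carried it, with a median log2 fold change of -0.06, beside 0.0079 in the others. As the heptamer was named from the same data, these medians are no independent support for it. Carriers and others were not matched for 3′ UTR length.

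The isomerase, the desaturase and the final reductase were also compared. EBP stood at 143.3, 116.5, 168.7 and 120.2 CPM in siCtrl replicates 1 to 4 and at 101.1, 124.9, 125.9 and 95.4 CPM in siNAT10 replicates 1 to 4, and the groups overlapped in both batches. Its log2 fold change was -0.29 (95% interval -0.57 to -0.01, unadjusted p 0.042, edgeR adjusted p 0.29), and it was -0.16 without siCtrl replicate 3, the highest library. SC5D ran from 16.8 to 21.7 CPM in siCtrl and from 16.0 to 18.3 CPM in siNAT10. Its difference was the smallest of the 7, at -0.17 with an interval from -0.43 to 0.08 (edgeR adjusted p 0.52), and it was -0.11 without siCtrl replicate 1.

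DHCR7 stood at 120.0, 124.0, 76.8 and 82.6 CPM in siCtrl replicates 1 to 4 and at 71.8, 91.6, 73.3 and 63.5 CPM in siNAT10 replicates 1 to 4. Both siNAT10 libraries were lower than both siCtrl libraries in each batch, by a wide gap in batch 1 and a narrow one in batch 2. The log2 fold change was -0.40 (SE 0.11, unadjusted p 0.0027, edgeR adjusted p 0.079). It was -0.57 in batch 1 and -0.22 in batch 2 fitted alone. The 3 genes in which every siNAT10 library lay below both siCtrl libraries of its batch were SQLE, MSMO1 and DHCR7, 3 of 7 members, against 7.9% of all tested genes. The same 3 were the members lower without overlap in batch 1, against 22.4% of all tested genes, and in batch 2, against 18.5%.

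**Figure D2:**
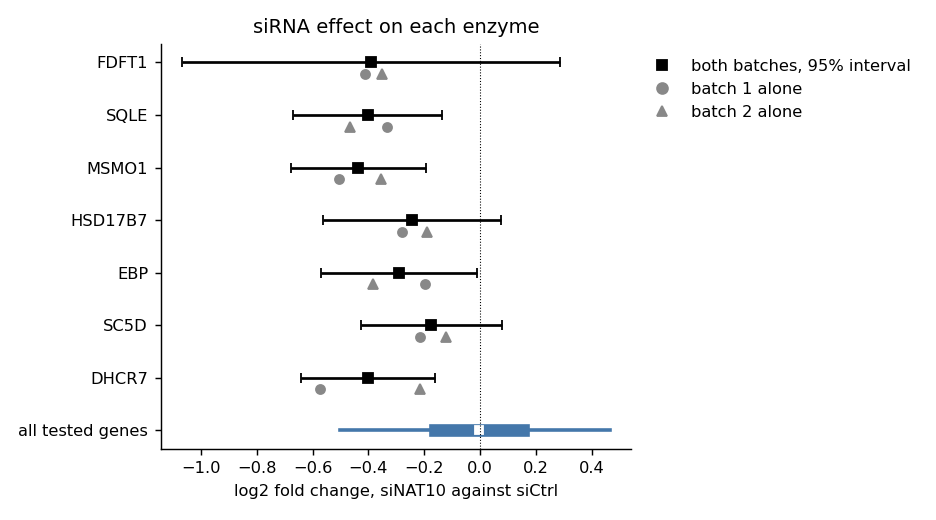
Fitted log2 fold change of each tested enzyme (x axis, siNAT10 against siCtrl), with its 95% interval from all 8 libraries as a square and bar, and the value in each batch fitted alone as a grey circle or triangle. The bottom bar gives the 5th to 95th and 25th to 75th percentiles of all 13840 tested genes, with the median in white. All 7 squares lie below 0, and the intervals of FDFT1, HSD17B7 and SC5D cross it.

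Whether the siRNA effect differed between batches was tested with an interaction term. It was called for 0 of 7 members (edgeR), as for 0% of all tested genes, and 0 members had an unadjusted p under 0.05, against 3.04% of all genes. DESeq2 also called 0 members. The largest difference was that of DHCR7, whose log2 fold change was higher by 0.36 (SE 0.22) in batch 2 (unadjusted p 0.13). The standard errors of this term ran from 0.22 (DHCR7) to 0.67 (FDFT1). In both batches fitted alone all 7 fold changes were below 0, as they were in 31% of the 13261 genes fitted in both.

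Levels were also compared between the batches. Of the 7, 3 were called between batch 2 and batch 1 (edgeR, siRNA in the model), against 25.3% of all tested genes (13% higher and 12.2% lower in batch 2). SQLE was higher in batch 2 (mean 32.8 against 24.97 CPM, log2 fold change 0.38, edgeR adjusted p 0.037). DHCR7 was lower (74.0 against 101.8 CPM, -0.44, edgeR adjusted p 0.010), as was HSD17B7 (10.1 against 13.8 CPM, -0.43, edgeR adjusted p 0.044). SQLE, which oxidises squalene, and DHCR7, a last reductase, thus differed between batches in opposite directions, while both had a lower fitted level in siNAT10. The calls did not rest equally on all libraries: with each of the 8 left out in turn, DHCR7 was called in 8 fits, HSD17B7 in 3, SQLE in 2 and MSMO1 in 1 (without siNAT10 replicate 1). SQLE was called without siNAT10 replicate 2 or 4, and HSD17B7 when siCtrl replicate 1, siCtrl replicate 3 or siNAT10 replicate 3 was left out. Without siCtrl replicate 2 or siCtrl replicate 4 the count of members called was 1 (DHCR7).

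After the mean of its batch was taken from each gene's log2 CPM, the 7 enzymes were compared library by library. In siNAT10 replicate 1 and siNAT10 replicate 4 all 7 lay below the batch mean, with mean deviations of -0.42 and -0.29. In siNAT10 replicates 2 and 3 the mean deviations were 0.032 and -0.018, and 4 of 7 lay below. These means weigh all 7 alike, including FDFT1, the member of lowest depth. FDFT1 had the largest deviation of the 7 in every siNAT10 library, at -0.81, 0.29, 0.33 and -0.77 (replicates 1 to 4). The siCtrl libraries had mean deviations of 0.24, 0.15, 0.23 and 0.077 (replicates 1 to 4). On the mean of the 7, siNAT10 replicates 1 and 4 were thus the lowest library of their batch. NAT10 itself stood at 13.1 and 12.2 CPM in the siNAT10 libraries of batch 1 and at 20.1 and 22.3 CPM in those of batch 2. The part of the NAT10 level in the differences between siNAT10 libraries was not tested.

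With the batch and siRNA means both removed, 19 of the 21 pairs of members correlated positively over the 8 libraries, with a median r of 0.45. Over all pairs of the 8667 tested genes with a mean of at least 8 CPM, 50.2% were positive and the median r was 0.0027. FDFT1 lies below that level and was kept among the members, so members and background are not alike in this. The highest values were those of FDFT1 with EBP (0.77) and of SQLE with MSMO1 (0.75), and the lowest that of MSMO1 with HSD17B7 (-0.17). The values are a description: they rest on 5 residual degrees of freedom, and all genes share the same 8 libraries and their depth. The mean of the members followed depth within each group and batch, and the part of depth in these correlations was not tested.

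**Figure D3:**
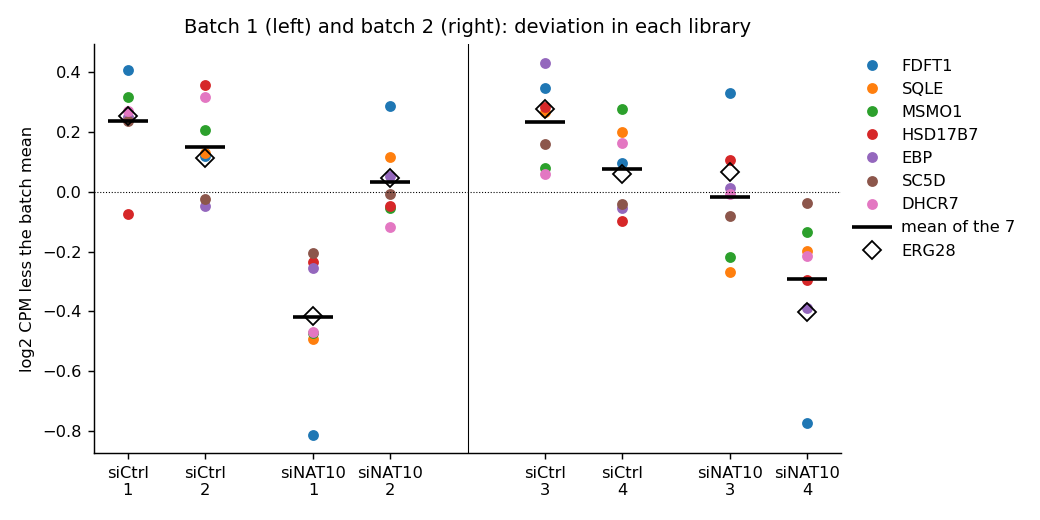
Log2 CPM less the batch mean (y axis) for each tested enzyme (coloured points) in each library (x axis), with the mean of the 7 as a bar and ERG28 as an open diamond. All 7 points lie below 0 in siNAT10 replicates 1 and 4, and the points of siNAT10 replicates 2 and 3 lie on both sides of 0.

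The genes whose profile was most like the mean of the 7 enzymes were SMIM24 (r = 0.98), ERG28 (0.98), EXOSC2 (0.98), BTD (0.97) and SCNN1A (0.97), out of 8453 genes with a symbol and a mean of at least 8 CPM. The measure was Pearson's r of batch-centred log2 CPM over the 8 libraries, which share depth and composition, and it is given as a description. FDFT1, at low depth, weighs in the mean of the 7 as much as each other member. ERG28 encodes a scaffold protein of the endoplasmic reticulum that holds the C4 demethylation enzymes together. It stood at 55.9, 50.7, 52.7 and 45.3 CPM in siCtrl replicates 1 to 4 and at 35.1, 48.5, 45.6 and 32.9 CPM in siNAT10 replicates 1 to 4. Its low libraries were those in which all 7 enzymes were low, but ERG28 was chosen by likeness to them, so this adds no support. Its log2 fold change was -0.33 (SE 0.13, edgeR adjusted p 0.20). Those of SMIM24, EXOSC2, BTD and SCNN1A were -0.39, -0.13, -0.27 and -0.46 (edgeR adjusted p 0.14, 0.65, 0.33 and 0.088).

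The promoters are shown for MSMO1 and DHCR7, the 2 members with the lowest p, and for EBP, the member with the highest level. Sequences of the 250 bases before the start are from RefSeq (GRCh38.p14), read 5′ to 3′ on the strand of the gene, at chr4:165327419-165327668 (plus), chr11:71448394-71448643 (minus) and chrX:48521558-48521807 (plus). Capitals mark matches on either strand to CCAAT (bound by NF-Y), GGGCGG (bound by Sp1) and TCACNCCA, a core of the sterol regulatory element.
MSMO1: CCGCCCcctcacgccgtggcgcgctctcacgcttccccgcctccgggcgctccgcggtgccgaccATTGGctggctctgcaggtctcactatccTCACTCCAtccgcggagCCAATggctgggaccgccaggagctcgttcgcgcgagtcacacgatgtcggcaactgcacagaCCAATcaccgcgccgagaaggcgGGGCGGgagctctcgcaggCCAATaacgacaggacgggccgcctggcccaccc
DHCR7: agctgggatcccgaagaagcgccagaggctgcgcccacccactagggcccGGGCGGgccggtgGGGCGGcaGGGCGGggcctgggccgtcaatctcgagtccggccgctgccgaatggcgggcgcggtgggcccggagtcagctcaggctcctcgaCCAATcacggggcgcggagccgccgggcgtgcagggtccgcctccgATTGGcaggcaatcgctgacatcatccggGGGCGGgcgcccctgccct
EBP: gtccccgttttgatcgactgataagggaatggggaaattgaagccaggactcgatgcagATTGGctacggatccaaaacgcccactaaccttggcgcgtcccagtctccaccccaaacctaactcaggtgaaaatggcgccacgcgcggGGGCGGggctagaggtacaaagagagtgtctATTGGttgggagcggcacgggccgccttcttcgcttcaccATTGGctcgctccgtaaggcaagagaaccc

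RefSeq promoter windows from 250 bases before to 50 after the start were at hand for 7 of the 9 members, including CYP51A1 and NSDHL. DHCR7 and SC5D have more than 1 window there, and the first listed was taken, which for DHCR7 lies inside the gene as GENCODE 44 annotates it. CCAAT was found in 6 of these 7 windows, all but that of CYP51A1, and in 34.6% of all 35116 windows. NSDHL had 5 matches, 2 of which overlap, MSMO1 had 4, EBP 3, DHCR7 and HSD17B7 2 each and SC5D 1. GGGCGG was found in 6 of 7, all but NSDHL, and in 44.95% of all windows. DHCR7 had 4 of these matches. TCACNCCA was found in MSMO1 alone of the 7, beginning 156 bases before the start, and in 3.95% of all windows. A match describes the letters only.

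The other enzymes of the late arm were compared from a list of 4, of which 3 were tested. Of these, 0 were called, against 2.28% of all tested genes, and all 3 had a fold change below 0, against 50.3%. Their median log2 fold change was -0.042, the value of LBR. LSS, the lanosterol synthase, had 0 counts in all libraries, which again allows up to 3 counts in a library. TM7SF2, a sterol C14 reductase, averaged 33.5 ± 2.11 CPM with siCtrl and 27.0 ± 6.19 CPM with siNAT10 (log2 fold change -0.31, unadjusted p 0.030, edgeR adjusted p 0.25). Its fold change was -0.17 in batch 1 alone and -0.47 without siNAT10 replicate 2. LBR, a nuclear envelope protein with the same activity, averaged 122.6 ± 10.0 and 119.1 ± 8.73 CPM (-0.04, 95% interval -0.24 to 0.16, edgeR adjusted p 0.88).

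In the mevalonate arm 1 of 8 tested genes was called, lower in siNAT10, against 1.46% of all tested genes. A fold change below 0 was seen in 7 of 8, against 50.3% of all tested genes, with a median of -0.11 in the list. FDPS, which makes the farnesyl pyrophosphate that FDFT1 uses, averaged 136.7 ± 29.2 CPM with siCtrl and 106.2 ± 22.6 CPM with siNAT10 (log2 fold change -0.36, unadjusted p 0.035, edgeR adjusted p 0.27), and the fold change was -0.21 without siCtrl replicate 3. Of 7 genes that draw farnesyl pyrophosphate into other products, 0 were called and 2 had a fold change below 0, against the same 50.3%. Among them COQ2, of ubiquinone synthesis, was at -0.31 (unadjusted p 0.031, edgeR adjusted p 0.26).

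Of 12 tested genes of sterol sensing and uptake, 1 was called, lower in siNAT10, against 1.46% of all tested genes. SREBF2, which encodes SREBP-2, averaged 165.3 ± 16.2 and 132.4 ± 15.9 CPM (-0.32, edgeR adjusted p 0.14), with -0.18 in batch 1 alone. NPC2, which carries cholesterol in lysosomes, was at -0.29 (edgeR adjusted p 0.13, DESeq2 adjusted p 0.047). MBTPS1 and MBTPS2, the proteases that release SREBP-2, were at 0.27 and 0.59 (edgeR adjusted p 0.19 and 0.061), and the value of MBTPS2 was 0.27 in batch 1 and 0.96 in batch 2 fitted alone. MBTPS2 had an adjusted p of 0.043 with the replicate block, 0.015 with DESeq2 and 0.0087 with no filter on low counts. Of 6 tested genes of sterol storage and efflux 0 were called, and SOAT1, which esterifies cholesterol, was at -0.37 (edgeR adjusted p 0.099).

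Several enzymes of the arm take electrons from shared partners. Of 7 genes for such partners and for helper proteins 0 were called, and their median log2 fold change was 0.078. POR, the reductase that serves SQLE and CYP51A1, averaged 257.1 ± 39.4 CPM with siCtrl and 314.2 ± 19.8 CPM with siNAT10 (log2 fold change 0.30, unadjusted p 0.010, edgeR adjusted p 0.15). CYB5R3, which reduces cytochrome b5, averaged 394.7 ± 18.0 and 340.2 ± 45.1 CPM (-0.22, edgeR adjusted p 0.29, with -0.12 in batch 1 alone). CYB5A, a cytochrome b5 that serves the desaturation and demethylation steps, averaged 123.1 ± 15.5 and 139.8 ± 5.97 CPM (0.18, edgeR adjusted p 0.44), and its value was 0.11 without siCtrl replicate 3.

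**Figure D4:**
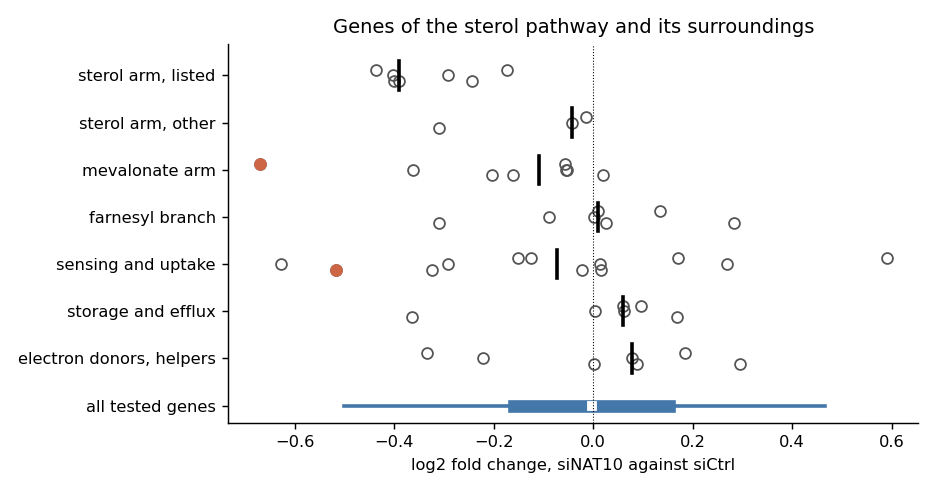
Fitted log2 fold change (x axis, siNAT10 against siCtrl) of every tested gene of the pathway lists, with filled points for genes with an edgeR adjusted p under 0.05 and a bar at each list's median. The bottom bar gives percentiles of all tested genes as before. The listed enzymes of the late arm have their median at -0.39, the value of FDFT1, with no filled point. The mevalonate and the sensing and uptake lists each hold 1 filled point.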

How the data were processed

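QuantSeq 3′ mRNA libraries (given as FWD in the series text and REV in the protocols) were aligned by the authors with STAR 2.7.9a to GRCh38 and counted with featureCounts, per the series' design text. Trim Galore 0.6.10 and cutadapt 3.5 are also named, per the submitters' processing notes. The deposited values are raw counts per Ensembl gene, as whole numbers, and the annotation release, strand setting and rule for reads in several genes are not given in the sources used here. Of 86369 identifiers, 61458 matched GENCODE 44, which gave symbols and coordinates. The unmatched identifiers were kept and made up 1.27% to 1.65% of each library.

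The test used edgeR 4.0.16 under R 4.3.3: filterByExpr (minimum count 10), TMM, and the quasi-likelihood F test with batch and siRNA as terms, tested on simulated data. Calls needed an adjusted p (Benjamini-Hochberg, over all 13840 genes) under 0.05. Standard errors and intervals come from the F statistic. Correlations used log2 CPM with a prior count of 2. Depth ran from 9731718 to 27977110 counts, and limits from 0 counts cover counting error only. The alternatives were no batch term, a replicate block, DESeq2 1.42.0, RLE factors, library size alone, no filter, a filter at a mean of 10 counts, either batch by itself and the fits that left out a library.

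Both groups share replicate numbers. Same-numbered libraries correlated in their deviations from the group means (r = 0.39, 0.38, 0.45 and 0.36 for replicates 1 to 4), which met the rule for pairing. These deviations keep the batch difference, which same-numbered libraries share, so these values cannot show pairing within a batch. The main test had batch, and not replicate number, as its block. After the means of each group within its batch were removed, r was -0.06 in batch 1 and 0.17 in batch 2.

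The members and lists were chosen with earlier results of these data known. The genes named were NAT10, all 9 members, genes of the lists with an unadjusted p under 0.05 and up to 3 others per list, and the 5 genes most like the mean of the 7 tested members. Some genes of these lists are not reported here by name.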

Additional observations from a re-analysis of the deposited data

Results flagged for a closer look

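In 18 groups of 4 values (each tested enzyme, their summed level and the total counts, in each siRNA group), the highest or lowest library was examined for standing apart, and 2 were found where chance gives about 1 in 20. SQLE in siNAT10 replicate 1 stood at 17.4 CPM, against 26.6 to 28.2 CPM in the other siNAT10 libraries. MSMO1 in siNAT10 replicate 2 stood at 40.0 CPM, against 29.3 to 31.1 CPM in the others. Without siNAT10 replicate 1 the log2 fold change of SQLE was -0.30 (edgeR adjusted p 0.30), and without siNAT10 replicate 2 that of MSMO1 was -0.51 (edgeR adjusted p 0.087).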

How the results depend on the processing

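In all 17 alternatives the log2 fold changes of the 7 tested enzymes stayed below 0, and FDFT1, SQLE, HSD17B7, EBP and SC5D were called in none. MSMO1 was called in 4 and DHCR7 in 2. The number of members called, 0 as reported, was 1 with the replicate block (MSMO1), 2 with DESeq2, 2 with no filter on low counts, and 0 to 1 when a library was left out (MSMO1 without siCtrl replicate 3). The replicate block changed no other member's call and, of 15 other named genes, that of MBTPS2 alone. Members with an unadjusted p under 0.05 numbered 2 in batch 1 alone and 1 in batch 2 alone, in place of 4. All of these were lower, as were 7.02% of all tested genes in batch 1 alone and 3.79% in batch 2 alone. Over all genes 315 were called, against 15 with no batch term, 599 with DESeq2, 595 with no filter, 173 in batch 1 alone, 0 in batch 2 alone and 454 with the replicate block. Leaving out a library gave 75 to 286. NAT10 had a log2 fold change of -1.58 in batch 2 alone (edgeR adjusted p 0.086). Of the calls between siNAT10 and siCtrl 64.1% were lower, and 51.9% with library size alone, which moved the median of all genes to 0.037. The members called between batches, 3 as reported, were 1 to 2 when a library was left out and 2 with library size alone or no filter. With a library left out LBR ran from -0.082 to 0.00020, above 0 only without siCtrl replicate 2. The cause of these shifts was not tested. With a library left out, the lone library of its group and batch was assumed to vary like the others. Of the 7 tested members FDFT1 had the lowest depth, at 8 to 74 counts in a library.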

Other observations

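Other genes of cholesterol metabolism also had few or no counts here. INSIG1, which holds SREBP-2 in the endoplasmic reticulum, had 0 counts in all libraries, as did LSS. SERPINA1, which encodes alpha-1 antitrypsin and is known as an abundant liver transcript, averaged only 5.91 ± 5.01 CPM (SD) with siCtrl and 4.02 ± 3.20 CPM with siNAT10, n = 4 each. In GENCODE 44, 1047 protein-coding genes have over 90% of their last exon under an exon of another gene on the same strand, CYP51A1 among them. Of these 1047 genes 87.6% had fewer than 10 counts over the 8 libraries, against 35.4% of the other 18991 protein-coding genes. These classes were not matched for expression, and the part of overlap in their counts, including that of CYP51A1, was not tested. LSS, INSIG1, SERPINA1, NSDHL and FDFT1 are not among the 1047, and what lowers their counts was not tested.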
